A study of Mus musculus with 8 samples.

Results

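Krt8, Krt18, Krt7 and Krt19 encode the keratins of simple epithelia. Their transcripts were measured in NG4, a mouse embryonic stem cell line, after knockdown of Sox2, Psmd14 or Ddb1 with small interfering RNA (siRNA). The 4 genes were chosen with earlier results of these arrays known, on their log2 values across the 4 siRNA groups, so those values are given as a description with no test. They were read by the 6 probe sets, of 45037 without controls, that the platform annotation assigns to exactly 1 of these symbols: 3 for Krt8 and 1 each for Krt18, Krt7 and Krt19. By their brightest probe set they are 4 of 18193 genes.

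The groups are siNonTarget, siSox2, siPsmd14 and siDdb1, named for the siRNA, with 2 arrays in each. All cells were reverse transfected and collected 48 h later, so the control cells also went through transfection, with a non-targeting siRNA. The labels name 1 cell line and do not say whether replicates were separate cultures, so p-values measure no more than array-to-array spread, possibly a technical one. Psmd14 is the deubiquitinase of the proteasome lid, Sox2 one of the core pluripotency factors, and Ddb1 the adaptor of the CUL4 ubiquitin ligases.

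Keratins are the intermediate filaments of epithelial cells, and a filament needs a type II keratin paired with a type I keratin. Krt8 (type II) with Krt18 (type I) is the basic pair of simple epithelia, to which many epithelia add the type II Krt7 and the type I Krt19. They are the first keratins of the mouse embryo, where trophectoderm and extraembryonic endoderm carry them, and keratin proteins without a partner are cleared by the ubiquitin-proteasome system. Desmosomes and plakin linkers tie the filaments to the cell surface.

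In the RefSeq gene order of GRCm38.p6, Krt8 and Krt18 are direct neighbours on chromosome 15, between Krt78 and Eif4b, so that the type I gene Krt18 lies at the edge of the type II cluster. Krt7 lies on the same chromosome between Krt80 and Krt87, and Krt19 on chromosome 11 between Krt15 and Krt9. The promoter windows of Krt8, Krt18 and Krt7, from 250 bases before to 50 after the start in RefSeq on GRCm38.p6, are shown because families of factors known to bind such motifs are described further on. Capitals mark every match, on either strand, to a TATA box (TATAAA), a GC box bound by SP and KLF factors (GGGCGG) or an AP-2 site (GCCNNNGGC).

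Krt8, chr15:102004293-102004592, - strand: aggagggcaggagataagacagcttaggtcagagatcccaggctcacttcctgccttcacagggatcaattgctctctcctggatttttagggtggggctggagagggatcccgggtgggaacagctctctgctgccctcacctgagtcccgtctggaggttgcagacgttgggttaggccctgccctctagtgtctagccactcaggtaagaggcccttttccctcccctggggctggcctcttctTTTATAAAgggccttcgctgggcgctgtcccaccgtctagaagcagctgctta

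Krt18, chr15:102027966-102028265, + strand: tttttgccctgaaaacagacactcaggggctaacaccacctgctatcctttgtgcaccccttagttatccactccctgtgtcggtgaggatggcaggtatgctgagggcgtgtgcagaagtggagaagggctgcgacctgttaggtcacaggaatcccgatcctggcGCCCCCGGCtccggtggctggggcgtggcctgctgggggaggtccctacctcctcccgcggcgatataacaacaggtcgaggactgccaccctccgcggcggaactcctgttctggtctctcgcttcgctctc

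Krt7, chr15:101412153-101412452, + strand: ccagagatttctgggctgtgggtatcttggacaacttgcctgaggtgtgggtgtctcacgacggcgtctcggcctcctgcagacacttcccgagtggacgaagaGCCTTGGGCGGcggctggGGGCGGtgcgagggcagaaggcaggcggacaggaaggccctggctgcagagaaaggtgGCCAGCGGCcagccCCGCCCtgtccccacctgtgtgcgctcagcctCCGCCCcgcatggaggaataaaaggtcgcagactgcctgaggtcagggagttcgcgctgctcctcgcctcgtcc

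The windows differ in what they hold. In the Krt8 window TATAAA matched on both strands in 1 overlapping run from -3 to 5 relative to the start, and 13.6% of 32851 RefSeq windows of this length hold that motif. The Krt18 window held 1 AP-2 site, a motif in 16.6% of windows. The Krt7 window held 4 GC boxes and 2 AP-2 sites, of which 1 of each overlap, and GC boxes occur in 35.7% of windows. The AP-1 site TGANTCA, in 7.81% of windows, matched in none of the 3, which says only that these letters are not in these windows. The ETS core GGAA, left in lower case, matched 3 times in Krt8, 2 times in Krt18 and 3 times in Krt7, and 96.0% of windows hold it. A match is a description of letters, not a site shown to be bound.

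**Figure D1:**
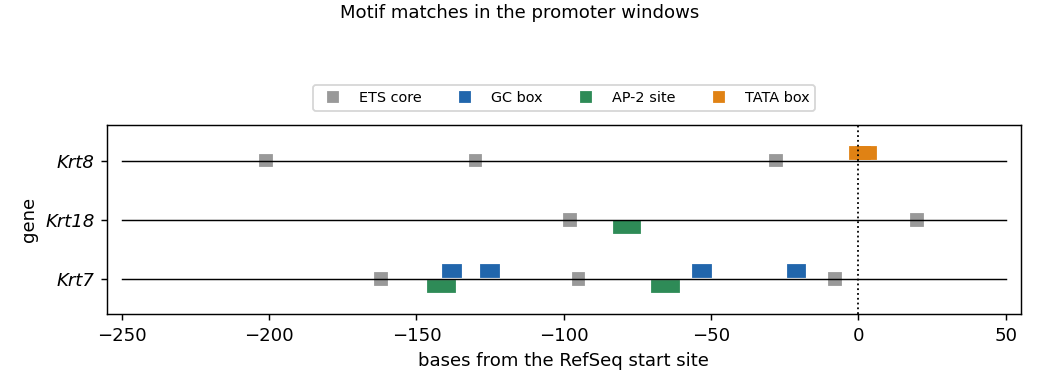
Motif matches in the promoter windows of Krt8, Krt18 and Krt7, by distance in bases from the RefSeq start site (dotted line); boxes span the matched bases and their colour gives the motif. Krt7 holds 4 GC boxes and 2 AP-2 sites, and Krt18 holds 1 AP-2 site. Krt8 has a match to the letters TATAAA across its annotated start, which was not shown to act as a TATA box.

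Array medians were 27.37 to 28.83 in linear intensity, after the RMA normalization, which usually evens them out. Within a group, a typical probe set had an SD of 0.102 to 0.12 (log2) over its pair of arrays. Each target was read by 1 probe set. Ddb1 intensity was 22.1% and 46.1% of the control mean on siDdb1 replicates 1 and 2, Sox2 was 83.6% and 69.8% on the siSox2 arrays, and Psmd14 was 90.5% and 82.7% on the siPsmd14 arrays. None of these 3 differences passed the limma threshold of an adjusted p of 0.05 (adjusted p = 0.147, 0.301 and 0.522). On siPsmd14 replicate 1 Sox2 was at 82.3%, as low as on siSox2 replicate 1, but on siPsmd14 replicate 2 it was at 103%. The controls themselves lay at 91.5% and 108%. All 10 embryonic stem cell markers, among them Pou5f1, Nanog and Zfp42, had group means above the median of all probe sets (4.81 on the log2 scale) in every group. These 10 include Sox2, the target of siSox2 (-0.38 there), so the siSox2 count, median and sum of the list include the target itself. All 10 were below the control in siSox2 and in siPsmd14, with medians of -0.40 and -0.44 beside -0.03 and -0.01 for all genes. Their summed intensity was 59033 to 64826 in siNonTarget, 48647 to 53442 in siSox2, 49883 to 53411 in siPsmd14 and 55611 to 57149 in siDdb1. By limma Esrrb fell in siSox2 (-0.58, adjusted p = 0.0399), as 1.46% of all genes did. At an unadjusted p under 0.05 there were 6 of the 10 in siSox2, 6 in siPsmd14 and 2 in siDdb1, where 19.1%, 17.1% and 9.86% of all genes were. The part of these differences in the keratin values was not tested.

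All 4 keratins were highest in siSox2 and lowest in siNonTarget. Krt8, the type II partner of the basic pair, read 9.92 and 9.74 on the log2 scale in siNonTarget, 12.36 and 13.47 in siSox2, 12.51 and 12.40 in siPsmd14, with 10.45 and 10.49 in siDdb1. Both siDdb1 arrays lay above both controls and well below the other knockdowns, whose values overlapped each other. The differences from siNonTarget were 3.09 (8.51-fold) in siSox2, 2.63 (6.18-fold) in siPsmd14 and 0.64 (1.56-fold) in siDdb1, each with an SE of 0.29 and 2 arrays per group.

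The other 2 probe sets of Krt8, whose names end in x_at, the suffix for probes that can match other transcripts as well, gave differences of 3.10 and 2.94 in siSox2, 2.69 and 2.54 in siPsmd14, with 0.68 and 0.67 in siDdb1. All 3 probe sets therefore gave Krt8 the same order of groups. RefSeq lists a pseudogene, Krt8-ps, and these arrays cannot say whether probes read it too.

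Krt18, the type I partner, read 9.67 and 9.36 in siNonTarget, 12.32 and 13.32 in siSox2, 12.14 and 11.64 in siPsmd14, with 10.27 and 10.11 in siDdb1. No 2 groups overlapped. The differences from siNonTarget were 3.30 (9.88-fold), 2.37 (5.18-fold) and 0.67 (1.60-fold) in that order of knockdowns, with an SE of 0.30.

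Krt7, the other type II keratin, was dim in the control, at 5.95 and 5.42, where array medians were 4.79 and 4.83. It read 9.94 and 10.38 in siSox2, 7.84 and 7.40 in siPsmd14, with 7.24 and 6.40 in siDdb1. The groups did not overlap, and siSox2 stood more than 2 log2 units above siPsmd14 even between the nearest arrays. The differences from siNonTarget were 4.47 (22.2-fold), 1.94 (3.83-fold) and 1.13 (2.20-fold), with an SE of 0.30. In siSox2, Krt7 had rank 3 of 18193 genes by rise.

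Krt19, the other type I keratin, read 7.74 and 7.51 in siNonTarget, 9.72 and 10.50 in siSox2, 9.72 and 9.07 in siPsmd14, with 9.42 and 8.87 in siDdb1. All knockdown arrays lay above both controls, but siPsmd14 and siDdb1 overlapped, and the nearest siSox2 and siPsmd14 arrays differed by 0.003. The differences from siNonTarget were 2.48 (5.60-fold), 1.77 (3.40-fold) and 1.52 (2.88-fold), with an SE of 0.30.

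**Figure D2:**
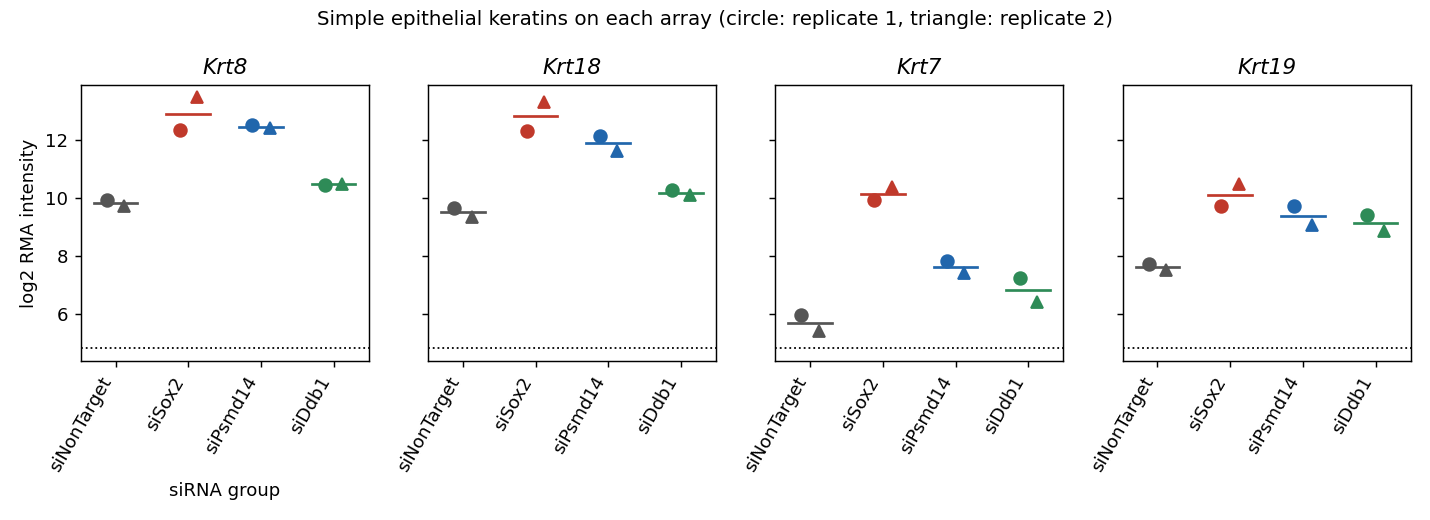
Log2 RMA intensity of the brightest probe set of Krt8, Krt18, Krt7 and Krt19 on each array (circles replicate 1, triangles replicate 2), with group means as lines and the median of the array medians dotted. All knockdown arrays lie above both siNonTarget arrays for each gene, and Krt7 starts lowest, at 5.42 to 5.95 in siNonTarget.

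In each of the 3 knockdowns, both arrays lay above both control arrays for 4 of 4 keratins. Over all genes this held for 23.3% in siSox2, 22.4% in siPsmd14 and 19.8% in siDdb1. The members' median difference was 3.20 in siSox2, 2.15 in siPsmd14 and 0.90 in siDdb1, where the medians of all genes were -0.03, -0.01 and -0.01. Genes at the upper edge of the middle 90% were at 0.65, 0.60 and 0.45. These comparisons share the siNonTarget arrays. In these bulk RNA samples, more cells with a transcript and more of it per cell cannot be told apart.

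The order among the members differed from one knockdown to the next. In siSox2 Krt7 was furthest above the control and Krt19 least (4.47 and 2.48). In siPsmd14 the Krt8 and Krt18 pair led (2.63 and 2.37), ahead of Krt7 and Krt19. In siDdb1 Krt19 (1.52) and Krt7 (1.13) were ahead of Krt18 (0.67) and Krt8 (0.64), the last pair differing by less than the SE. By rise among all genes, Krt19 held rank 43 in siSox2, 92 in siPsmd14 and 53 in siDdb1, whereas Krt8 held 16, 9 and 488.

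**Figure D3:**
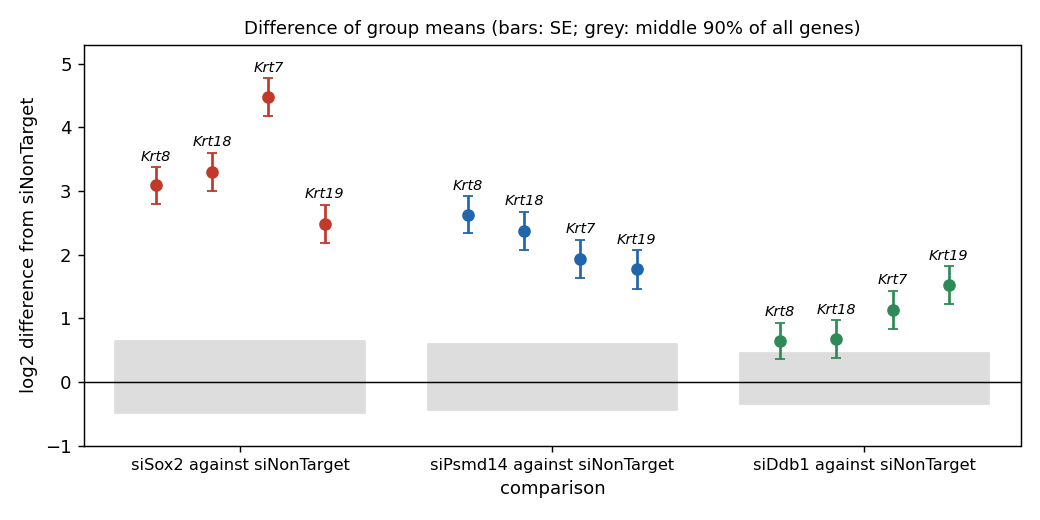
Log2 difference of each knockdown's mean from siNonTarget for the 4 keratins (points, with the SE from the limma fit as bars and 2 arrays per group); grey boxes hold the middle 90% of all genes. The members run from 2.48 to 4.47 in siSox2, from 1.77 to 2.63 in siPsmd14 and from 0.64 to 1.52 in siDdb1.

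Krt8 and Krt18 stayed close to each other on every array. Relative to the control, the difference of Krt8 minus Krt18 was -0.27 and -0.17 in siSox2, 0.06 and 0.45 in siPsmd14, with -0.14 and 0.07 in siDdb1, while the 2 controls lay at -0.07 and 0.07. Krt7 minus Krt8 moved in opposite directions, to 1.72 and 1.05 in siSox2 but to -0.53 and -0.85 in siPsmd14, and it was 0.94 and 0.05 in siDdb1. Krt19 minus Krt8 was -0.44 and -0.77 in siSox2, -0.59 and -1.13 in siPsmd14, with 1.18 and 0.58 in siDdb1. The pair thus stayed within 0.45 of its control proportion on every array, and each added keratin moved further than that from Krt8 on 5 of the 6 knockdown arrays.

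Replicates of a group differed in the same sense for most members, the controls included. On siNonTarget replicate 1 all 4 keratins were higher than on replicate 2, by 0.18 for Krt8, 0.31 for Krt18, 0.53 for Krt7 and 0.23 for Krt19. On siSox2 replicate 2 all 4 keratins were higher than on replicate 1, by 1.11 for Krt8, 1.01 for Krt18, 0.44 for Krt7 and 0.78 for Krt19. Sox2 was also lower on that array (69.8% against 83.6% of the control). On siDdb1 replicate 1, which had the lower Ddb1 value, Krt7 was higher by 0.84 and Krt19 by 0.55, and Krt18 by 0.16, while Krt8 was lower by 0.05. On siPsmd14 replicate 1 all 4 were higher, by 0.11 to 0.65, and there the Psmd14 value was the higher of the 2. That array also had the largest Actb 3' minus 5' probe difference of the 8, at 0.35 against 0.10 to 0.21 (log2), and siPsmd14 replicate 2 the highest 18S ribosomal RNA reading (13.06 against 12.68 or less). The part of target level or RNA quality in the keratin values was not tested.

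Set against each other, siPsmd14 was below siSox2 by 0.46 for Krt8, 0.93 for Krt18, 2.54 for Krt7 and 0.72 for Krt19, with SEs of 0.29 to 0.30. Both siPsmd14 arrays were below both siSox2 arrays for 3 of 4 members, Krt8 being the exception, as they were for 22.4% of all genes. Without siSox2 replicate 2, Krt8 was higher in siPsmd14 by 0.09, Krt18 and Krt19 were at -0.43 and -0.33, and without siSox2 replicate 1 the 3 were at -1.01, -1.44 and -1.11. Without siPsmd14 replicate 1, Krt18 was at -1.18 against -0.68 without replicate 2, and Krt19 at -1.04 against -0.39. Without siSox2 replicate 2 the members' median difference between siPsmd14 and siSox2 was -0.38, and without siSox2 replicate 1 it was -1.27. siDdb1 was below siSox2 on both arrays for 4 of 4 members (23.9% of all genes), by 2.45 for Krt8, 2.63 for Krt18, 3.34 for Krt7 and 0.96 for Krt19. siPsmd14 was above siDdb1 on both arrays for Krt8 (1.99), Krt18 (1.70) and Krt7 (0.80), as 19.6% of all genes were, but not for Krt19 (0.24).

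Partner genes came from 6 lists of keratins and proteins that work with them, and were not used to choose the members. The lists were drawn up with earlier results of these data known. Their counts, set beside the shares of all genes, are therefore a description. Each gene was tested with limma across all probe sets. A gene is said to have risen or fallen where its Benjamini-Hochberg adjusted p was under 0.05. Over all genes 4.28% passed in siSox2, 2.81% upward and 1.46% downward. In siPsmd14 1.89% passed, 1.7% upward and 0.187% downward, and in siDdb1 0.044% passed, all upward.

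Of 42 other keratins measured, none passed in any of the 3 knockdowns by limma. At an unadjusted p under 0.05 there were 5 in siSox2, 7 in siPsmd14 and 7 in siDdb1, where 19.1%, 17.1% and 9.86% of all genes were. In siNonTarget 31 of the 42 lay at or below the median of all probe sets, so most of the family was dim. The list's medians were -0.06, 0.02 and 0.05, beside -0.03, -0.01 and -0.01 for all genes.

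The other keratins with the smallest p were different genes in each knockdown. Those of siSox2 were lower there than in the control, and those of siPsmd14 and of siDdb1 were higher in their own knockdown. Krt17, a keratin of skin appendages, read 7.50 and 6.83 in siNonTarget and 6.23 and 5.40 in siSox2 (-1.35, SE 0.30, adjusted p = 0.0506). Krt42, a type I keratin bright in these cells, read 10.16 and 9.80 in siNonTarget and 9.40 and 8.96 in siSox2 (-0.80, adjusted p = 0.0655). In siPsmd14 they were Krt14, of basal epidermis (0.98, adjusted p = 0.0581), and the hair keratin Krt33a (0.56, adjusted p = 0.0949). In siDdb1 they were Krt12, of the cornea (1.06, adjusted p = 0.224), and Krt33b (0.40, adjusted p = 0.502). Krt14, Krt33a, Krt12 and Krt33b had siNonTarget values below the array medians.

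Of 15 other intermediate filament genes, 1 passed in siSox2 and 1 in siPsmd14. Nefh, the heavy neurofilament chain, fell in siSox2 (-0.91, SE 0.14, adjusted p = 0.0124), and Nes, the nestin of progenitor cells, rose in siPsmd14 (0.76, SE 0.14, adjusted p = 0.0415). The 2 other Nes probe sets did not pass there (0.65, adjusted p = 0.148, and 0.46, adjusted p = 0.425). In siDdb1 none of the 15 passed by limma (3 at an unadjusted p under 0.05, where 9.86% of all genes were). Synemin, Synm (1.22, adjusted p = 0.243), and the light neurofilament chain Nefl (0.58, adjusted p = 0.52) had the smallest p there. Vim, the vimentin of mesenchymal and stem cells, read 10.55 and 10.88 in siNonTarget, and its knockdown arrays lay between 10.35 and 11.21, overlapping the control range. The list's median differences were -0.04, 0.18 and 0.08.

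Of 23 measured genes of desmosomes and keratin anchors, 6 rose and none fell in siPsmd14. They were Dsp, Pkp3, Plec and Ppl, and, outside the naming rule and after their values were seen, Perp and Cd151. Desmoplakin, Dsp, which ties keratin filaments to desmosomes, read 7.80 and 7.85 in siNonTarget and 10.15 and 10.37 in siPsmd14. It rose by 2.43 (SE 0.18, adjusted p = 0.0015), with both siPsmd14 arrays above all 6 others. Another probe set of Dsp rose by 2.54, and a further, dim one did not pass (-0.09).

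Plakophilin 3, Pkp3, which clusters desmosomal proteins, read 6.80 and 6.57 in siNonTarget and 8.24 and 7.87 in siPsmd14 (1.37, adjusted p = 0.00781). A dimmer Pkp3 probe set did not pass (0.61, adjusted p = 0.0649). Plectin, Plec, a linker of filaments to hemidesmosomes and other cytoskeleton, read 8.41 and 8.48 in siNonTarget and 10.20 and 10.07 in siPsmd14 (1.69, adjusted p = 0.0129). Another Plec probe set rose (1.55, adjusted p = 0.0253), and a further, dim one did not pass (0.55, adjusted p = 0.129). Periplakin, Ppl, rose by 0.88 (adjusted p = 0.0204). The desmosomal p53 target Perp read 8.77 and 8.99 in siNonTarget and 11.41 and 10.37 in siPsmd14 (4.01-fold, adjusted p = 0.0337), and the tetraspanin gene Cd151 rose by 1.60 (adjusted p = 0.024). The list's median in siPsmd14 was 0.19. Plakoglobin, Jup, the catenin of desmosomes, read 7.76 and 7.76 in siNonTarget and 7.87 and 8.04 in siPsmd14.

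In siSox2, 3 of these 23 genes rose and 1 fell, with a median of 0.28. Desmocollin 2, Dsc2, a desmosomal cadherin, read 4.71 and 4.87 in siNonTarget, near the array medians, and 7.41 and 7.97 in siSox2. It rose by 2.90 (SE 0.23, adjusted p = 0.000503), while a dimmer probe set gave 0.65 and did not pass. Dsp read 8.86 and 9.37 in siSox2 and rose by 1.29 (adjusted p = 0.0086), and Ppl rose by 0.70 (adjusted p = 0.0294). Pof1b, an actin-binding gene of epithelial junctions, fell by 1.15 (adjusted p = 0.0415). In siDdb1 none of the 23 passed by limma (7 at an unadjusted p under 0.05, where 9.86% of all genes were). The smallest p there belonged to Perp (1.42, adjusted p = 0.289) and envoplakin, Evpl (0.95, adjusted p = 0.355).

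Of 26 epithelial junction genes and regulators, 6 rose and 1 fell in siSox2, with a median of 0.33. The membrane serine protease gene Prss8 read 7.25 and 6.81 in siNonTarget and 9.08 and 9.44 in siSox2 (2.23, SE 0.21, adjusted p = 0.00124). The epithelial ETS factor Elf3 read 7.75 and 7.24 in siNonTarget and 8.97 and 9.38 in siSox2 (1.68, adjusted p = 0.00787), and the claudin gene Cldn3 rose by 0.84 (adjusted p = 0.0301). Cldn4 (1.22), Cldn7 (1.54) and the splicing regulator Esrp2 (1.11), named after their values were seen, also rose. Grhl2, a regulator of epithelial genes, fell by 0.80 (adjusted p = 0.0303), though its 3 other probe sets did not pass (-0.30 to 0.14).

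In siPsmd14 the protease gene St14 was the 1 member of this list that rose (1.20, adjusted p = 0.0331), with a median of 0.15. In siDdb1 none passed by limma (6 at an unadjusted p under 0.05, where 9.86% of all genes were). Ovol2 (0.57, adjusted p = 0.314) and Grhl2 (0.55, adjusted p = 0.355) had the smallest p there. Cdh1, the E-cadherin of both stem cells and epithelia, was bright throughout, at 12.09 and 12.10 in siNonTarget and 12.16 to 12.56 on the knockdown arrays.

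Of 17 genes of the AP-1, ETS, SP, KLF and AP-2 transcription factor families, some members of which are known to act on simple keratin genes, 4 rose and none fell both in siSox2 and in siPsmd14. Fosl1, an AP-1 subunit, read 3.76 and 4.21 in siNonTarget, 4.15 and 4.59 in siSox2, 8.69 and 8.46 in siPsmd14, with 5.80 and 5.32 in siDdb1. It rose in siPsmd14 by 4.59 (SE 0.23, adjusted p = 0.000347), and its other probe set rose there by 3.07. The siSox2 arrays overlapped the control.

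Jun, the AP-1 partner, read 6.95 and 6.72 in siNonTarget, 8.75 and 9.35 in siSox2, 8.93 and 8.63 in siPsmd14, with 8.03 and 7.59 in siDdb1. It rose in siSox2 (2.22, SE 0.23, adjusted p = 0.00197) and in siPsmd14 (1.95, adjusted p = 0.00789). Ets1 read 4.75 and 4.68 in siNonTarget, 5.46 and 5.59 in siSox2, 6.97 and 7.10 in siPsmd14, with 5.94 and 5.45 in siDdb1, and it rose by 0.81 in siSox2 (adjusted p = 0.0403) and by 2.32 in siPsmd14 (adjusted p = 0.00129). Klf6, a zinc-finger factor that binds GC boxes, rose by 1.62 and 0.90 (adjusted p = 0.00162 and 0.0357). The AP-2 factor Tfap2c, of the trophoblast and germ line, rose in siSox2 (0.85, adjusted p = 0.0104) and not in siPsmd14, where it read 9.40 and 9.57 against 9.76 and 9.64 in the control. The list's medians were 0.38, 0.12 and 0.08. In siDdb1 none passed by limma (5 at an unadjusted p under 0.05, where 9.86% of all genes were). Fosl1 (1.57, adjusted p = 0.0882) and Ets1 (0.98, adjusted p = 0.15) had the smallest p there.

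Of 13 measured genes of keratin inclusion bodies and keratin-binding proteins, 4 rose in siSox2 and 3 in siPsmd14, and none fell. Sqstm1, the p62 receptor that collects with keratins in Mallory bodies, read 10.38 and 10.11 in siNonTarget, 11.10 and 11.53 in siSox2, and 12.26 and 11.72 in siPsmd14. It rose by 1.07 (adjusted p = 0.0423) and by 1.75 (SE 0.23, adjusted p = 0.012). A dimmer Sqstm1 probe set passed neither in siSox2 (0.42, adjusted p = 0.564) nor in siPsmd14 (1.38, adjusted p = 0.0578). The small heat shock protein gene Cryab rose by 2.46 (adjusted p = 0.0169) and 2.55 (adjusted p = 0.0262). In siSox2 the transglutaminase gene Tgm2, whose enzyme crosslinks keratins, rose by 2.17 (adjusted p = 0.00962) and the chaperone gene Hspa1b by 1.01 (adjusted p = 0.0403). Another Hspa1b probe set passed both in siSox2 (1.14, adjusted p = 0.0196) and in siPsmd14 (1.04, adjusted p = 0.046). A further one passed in siSox2 (1.08, adjusted p = 0.0352) and not in siPsmd14 (0.97, adjusted p = 0.0728). In siPsmd14 Sfn, the keratin-binding 14-3-3 sigma, rose by 1.40 (adjusted p = 0.049). The medians were 0.33, 0.26 and 0.17. In siDdb1 none passed by limma (4 at an unadjusted p under 0.05, where 9.86% of all genes were). Sfn (1.09, adjusted p = 0.307) and Hspa1a (1.59, adjusted p = 0.426) had the smallest p there.

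Over all 136 measured partner genes, 17 rose and 3 fell in siSox2, and 15 rose and none fell in siPsmd14. Without siNonTarget replicate 1, siNonTarget replicate 2 or siSox2 replicate 2, the limma count in siSox2 was 6, 4 and 5, and 4 calls (Dsc2, Prss8, Jun and Klf6) passed without each of the 8 arrays in turn. Without siNonTarget replicate 1, siNonTarget replicate 2 or siPsmd14 replicate 1, the count in siPsmd14 was 3 each time, and Dsp, Fosl1 and Ets1 passed without each of the 8. In siDdb1 0 of 136 passed by limma. At an unadjusted p under 0.05 there were 51 in siSox2, 45 in siPsmd14 and 32 in siDdb1, where 19.1%, 17.1% and 9.86% of all genes were. The union's medians were 0.08, 0.13 and 0.09.

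**Figure D4:**
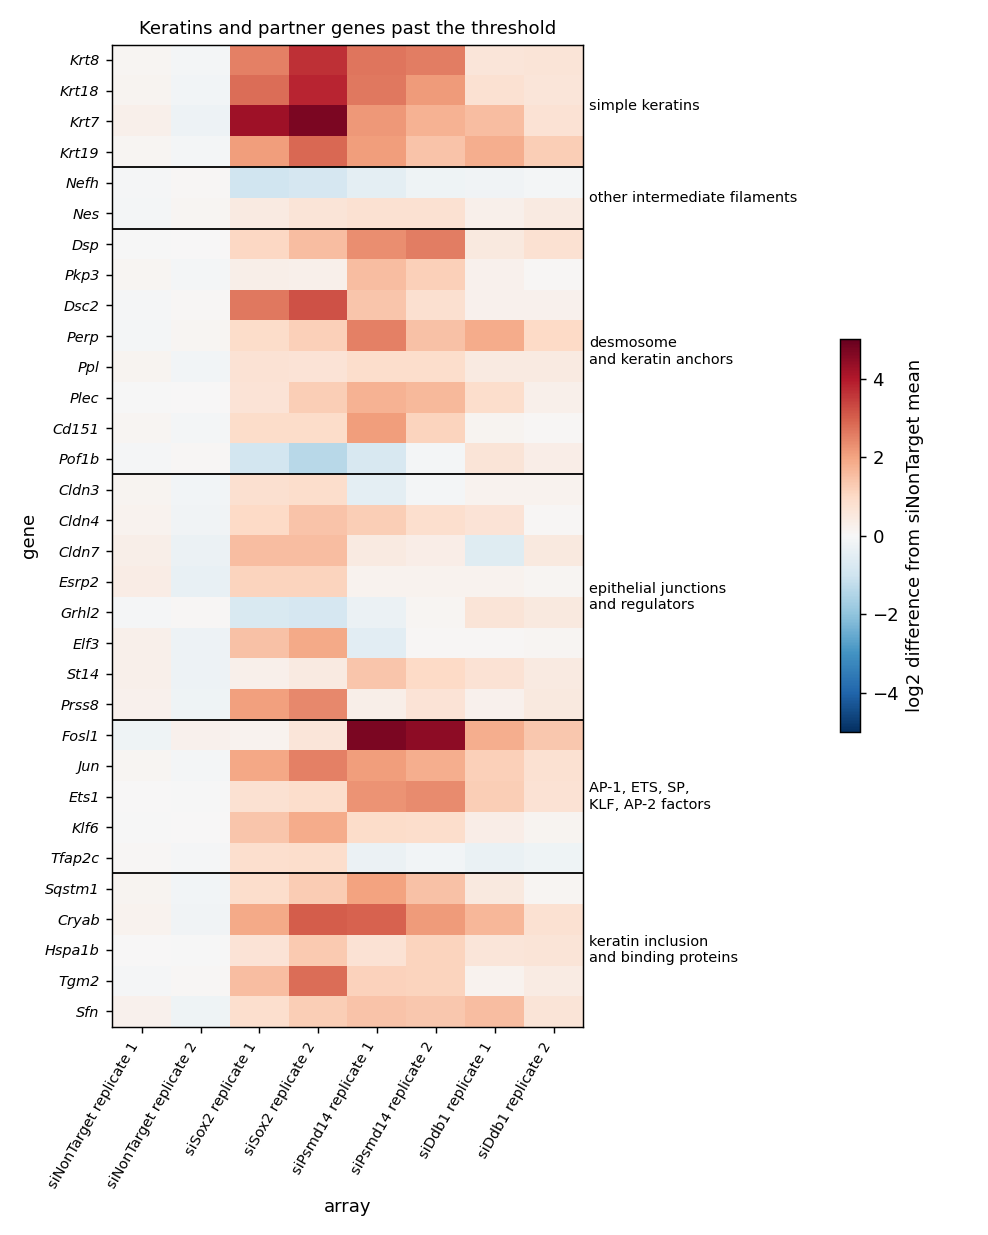
Log2 difference of each array from the siNonTarget mean (colour) for the 4 keratins and every partner gene that passed in a knockdown, grouped by list. Fosl1 and Dsp are strongest in siPsmd14, Dsc2, Elf3 and Prss8 in siSox2, and the siDdb1 arrays are paler for most genes.

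The direct comparison of siPsmd14 with siSox2 separated these partners. There 8 of the 136 genes were higher in siPsmd14 and 5 lower, where 1.98% and 2.05% of all genes were, and the count was 8 without siSox2 replicate 2 or siPsmd14 replicate 1. Higher in siPsmd14 were Fosl1 (4.20, adjusted p = 0.000125), Ets1 (1.51, adjusted p = 0.00317), Dsp (1.14, adjusted p = 0.0156) and Pkp3 (1.09, adjusted p = 0.00987), with Nefl, Synm, Ocln and Grhl2. Lower were Dsc2 (-1.79, adjusted p = 0.00515), Elf3 (-1.92, adjusted p = 0.0047), Prss8 (-1.74, adjusted p = 0.00417), Cldn3 (-1.14, adjusted p = 0.00907) and Tfap2c (-1.06, adjusted p = 0.00425). Nefl, Dsc2, Elf3, Prss8, Fosl1, Ets1 and Tfap2c passed without each of the 8 arrays in turn, and the other 6 did not, Dsp reaching an adjusted p of 0.0568, Pkp3 0.0753 and Cldn3 0.0722. These genes were named after their values were seen. In siPsmd14 against siDdb1, 5 partner genes were higher and none lower, over a background of 0.456% and 0.132%: Fosl1 (3.01), Dsp (1.81), Ets1 (1.34), Pkp3 (1.22) and Sqstm1 (1.47). Of these 5, Fosl1 passed without each of the 8 arrays in turn. In siDdb1 against siSox2, 8 partner genes were higher and 12 lower, over 2.03% and 2.6% of all genes. Dsc2 (-2.67, adjusted p = 0.000936), Prss8 (-1.87, adjusted p = 0.003), Klf6 (-1.39, adjusted p = 0.0033), Tfap2c (-1.12, adjusted p = 0.00317) and, upward, Grhl2 (1.36, adjusted p = 0.00328) passed without each of the 8. Krt17 (1.46, adjusted p = 0.0362) and Krt12 (0.98, adjusted p = 0.0468) were the 2 other keratins that passed in that comparison, both higher in siDdb1. Leaving out single arrays gave 1.05 to 1.88 for Krt17 and 0.64 to 1.31 for Krt12. Against siNonTarget a dimmer Krt17 probe set gave 0.02 in siSox2 and 0.06 in siDdb1, and another Krt12 probe set -0.09 and 0.71. Krt12 was dim in siSox2, at 3.66 and 3.77, below the array medians. The Grhl2 differences rest on its brightest probe set. Against siNonTarget its other probe sets ran from -0.30 to 0.14 in siSox2, from -0.07 to 0.27 in siPsmd14 and from -0.16 to 0.25 in siDdb1. None of them passed by limma.

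Markers of other cell types that carry simple keratins moved with them in part. The marker lists, too, were drawn up with earlier results of these data known. Of 13 trophectoderm markers other than keratins, 8 rose in siSox2, as 2.81% of all genes did. The summed intensity of the 13 was 7509 to 8572 there against 1124 to 2271 in siNonTarget. The 8 were Plac1 (6.23), Ascl2 (3.50), Gata2 (2.34), Gata3 (2.33), Rhox6 (2.17), Rhox9 (2.01), Dlx3 (1.97) and Cdx2 (1.65). The controls differed in Rhox6 (9.62 and 8.08) and Rhox9 (9.78 and 8.29). In siPsmd14 none of the 13 passed by limma (6 at an unadjusted p under 0.05, where 17.1% of all genes were). There 10 of the 13 were above the control, and the list's median was 0.34 beside -0.01 for all genes. In siDdb1 none of the 13 passed by limma (5 at an unadjusted p under 0.05, where 9.86% of all genes were). The sum was 1414 to 1488 in siPsmd14 and 1181 to 1251 in siDdb1, both within a control range that is wide through Rhox6 and Rhox9. Elf5, a defining trophoblast stem cell factor, was below the median of all probe sets in every group. Plac1 and Dlx3 were below it in siNonTarget and siDdb1, and Dlx3 also in siPsmd14. Plac1, a placental gene, read 4.58 and 4.08 in siNonTarget, 10.36 and 10.76 in siSox2, 5.37 and 5.36 in siPsmd14, with 4.59 and 4.20 in siDdb1.

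Of 11 primitive endoderm markers, 4 rose in siSox2 (Dab2, Foxa2, Gata6 and Sparc), as 2.81% of all genes did. By limma none passed in siPsmd14 (5 at an unadjusted p under 0.05, where 17.1% of all genes were). None passed in siDdb1 (3 at an unadjusted p under 0.05, where 9.86% of all genes were). The summed intensity was 2346 to 2769 in siNonTarget, 4067 to 5628 in siSox2, 3660 to 4019 in siPsmd14 and 2831 to 3477 in siDdb1. Gata4, Sox17 and Sox7, defining factors of that lineage, were below the median of all probe sets in every group. Of 10 fibroblast markers, 2 rose (Pdgfrb and Tagln) and 1 fell (Thy1) in siSox2, over 2.81% and 1.46% of all genes. In siPsmd14 2 rose (S100a4 and Tagln), over 1.7% of all genes, and in siDdb1 none passed by limma. The sums of the 10 were 920 to 1007 in siNonTarget, 2365 to 3686 in siSox2, 2100 to 3248 in siPsmd14 and 1521 to 1855 in siDdb1. The collagen genes Col1a1 and Col3a1 were below that median in every group. The part of other cell types in the keratin values was not tested.

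The genes with the array profiles most like those of the keratins were found among 1203 genes whose group means span at least 1 log2 unit, by Pearson's r over the 8 arrays, which share labelling and normalization. For the mean of Krt8 and Krt18 they were Fam102a (r = 0.995), the annexin genes Anxa4 (0.989) and Anxa5 (0.988), Tdrd7 (0.988) and Tinagl1 (0.984). Tinagl1, a matrix protein gene, came nearest in size: its arrays read 6.10 and 5.87 in siNonTarget, 8.21 and 9.64 in siSox2, 8.79 and 8.42 in siPsmd14, with 6.21 and 6.10 in siDdb1. It was highest on siSox2 replicate 2.

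For Krt7 the nearest profiles were Zswim8 (0.986), Afap1l2 (0.986), the iodide transporter gene Slc5a5 (0.982), Arhgef16 (0.982) and the secretin gene Sct (0.980). For Krt19 they were Kremen1 (0.989), the lipid droplet gene Plin2 (0.980), Vwa5a (0.980), the matricellular gene Ccn1 (0.978) and the kinase gene Jak2 (0.978). Ccn1 read 8.35 and 8.04 in siNonTarget, 9.89 and 10.69 in siSox2, 9.56 and 9.36 in siPsmd14, with 9.91 and 9.30 in siDdb1. Its siDdb1 and siPsmd14 arrays overlapped. The 3 sets of 5 genes had no member in common, but how often sets this small out of 1203 candidates share a gene was not worked out.

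**Figure D5:**
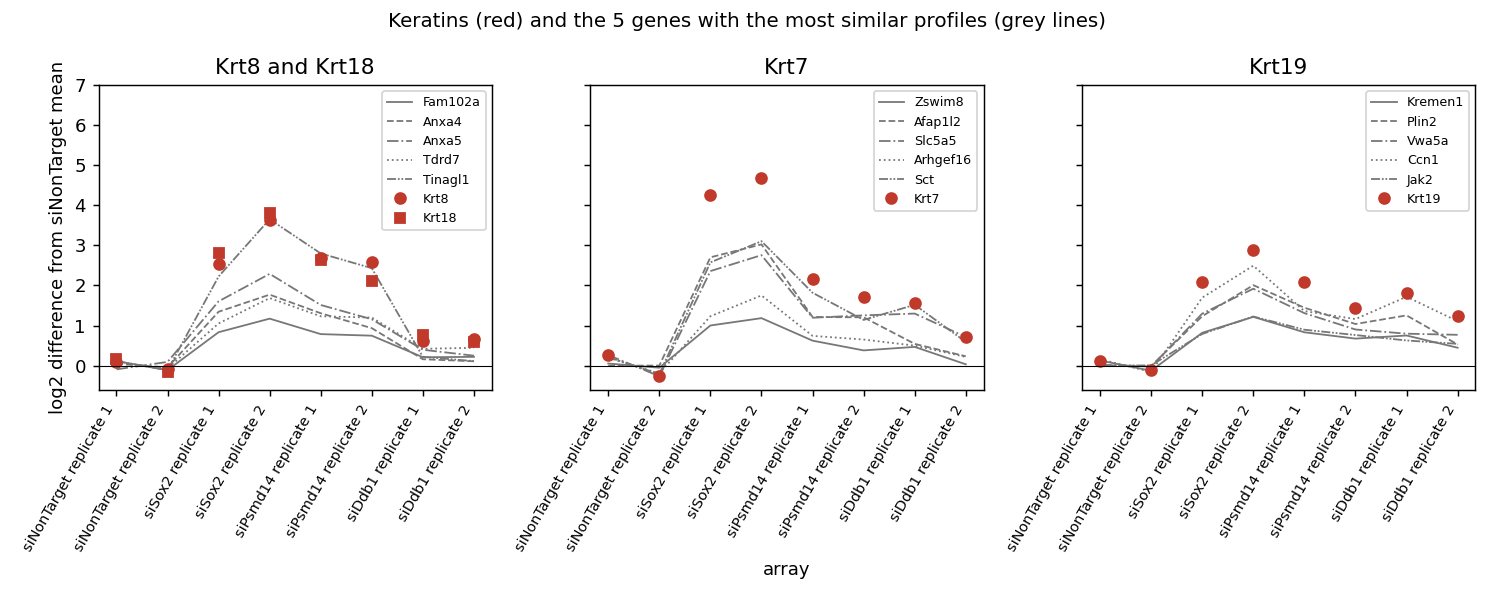
Log2 difference of each array from the siNonTarget mean for the keratins (red points) and the 5 genes with the highest Pearson correlation to each profile over 8 arrays (grey lines, drawn to guide the eye between arrays that have no order). The mean siDdb1 differences run from 0.13 to 0.43 for the neighbours of Krt8 and Krt18, and from 0.25 to 1.05 for those of Krt7. They run from 0.59 to 1.41 for those of Krt19. The neighbours were chosen by likeness to these same keratin values, so their likeness follows from the choice.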

How the data were processed

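RNA of 8 samples, 2 for each of the 4 siRNA groups, was extracted 48 h after transfection, and 5 ng was amplified, labelled as cDNA with biotin and hybridised to Affymetrix arrays, per the labels' protocols. The deposited intensity values had been made by the authors with RMA, as the submitters' processing notes say; version and settings: not given in the sources used here. RMA usually brings arrays to 1 distribution, so a difference is one against most other probe sets. Values were linear, and log2 was taken here.

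Of 45101 probe sets, 64 controls were left out. The platform annotation gave 34945 probe sets 1 symbol, 932 several and 9160 none, and 34741 matched the RefSeq table by Entrez identifier. For each gene the brightest probe set over all arrays was taken. limma 3.58.1 (R 4.3.3) fitted all 8 arrays together with lmFit and plain eBayes, giving 9.02 degrees of freedom in total, with p-values adjusted by Benjamini-Hochberg over 45037 probe sets at a threshold of 0.05. SEs come from that fit, and the number of arrays limits the precision. Scripts were tested on simulated data.

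The members and the partner and marker lists were chosen with earlier results of these data known. From each partner list, the text names, per knockdown, up to 4 passing genes in order of p, or 2 where none passed. The members, the 3 targets and 5 profile neighbours per keratin profile were always named. Other genes are marked as named after their values were seen, or illustrate a list. Alternatives covered normalization, a filter on dim probe sets, log2(value + 16), averaged probe sets, eBayes settings, the arrays fitted, the replicate block and leaving out each array.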

Additional observations from a re-analysis of the deposited data

How the results depend on the processing

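The median keratin differences kept their direction under every alternative run. With all arrays kept, all 20 alternative medians moved by less than 1 SD between replicates, and so did 119 of 120 alternative values of single keratins, Krt7 in siSox2 being 4.096 with log2(value + 16). With 2 arrays in a group, leaving 1 out moves a single keratin by less than that SD by construction, so those values say nothing of stability. Leaving out single arrays gave 2.668 to 3.725 in siSox2, 1.921 to 2.388 in siPsmd14, 0.6883 to 1.156 in siDdb1 and -1.271 to -0.3782 for siPsmd14 against siSox2. The limma counts of partner genes were less stable. With log2(value + 16) they were 9 in siSox2 and 5 in siPsmd14 in place of 20 and 15, and the cause was not tested. Leaving out single arrays gave 4 to 24 in siSox2, 3 to 18 in siPsmd14, 0 to 6 in siDdb1 and 8 to 15 for siPsmd14 against siSox2, with fewer arrays behind the spread. The other alternatives stayed within 1.5 times of the reported counts. The labels do not say whether same-numbered arrays share more than a number. The correlations of their replicate differences between groups ran from -0.217 to 0.242, and with 1 such difference per group they cannot settle it. With the replicate block the counts were 22, 15, 0 and 14 in the same order, against 20, 15, 0 and 13 without it. Signal over background could not be judged without scanner files, which were not used here, and dim probe sets such as those of most other keratins limit what their lists can show.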
